A study of Mus musculus with 4 samples.

Results

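The 3 FOXO transcription factor genes Foxo1, Foxo3 and Foxo4, together with 7 genes linked to growth arrest or quiescence (Ccng2, Rbl2, Sesn3, Pik3ip1, Tob1, Ypel3 and Pnrc1), were described in mouse mammary tumour cells. These 10 genes were picked by name from the 50679 gene identifiers of the deposited table. Of the 10, Ypel3, Pnrc1, Ccng2 and Rbl2 were picked because their values were lower in both PCNA 211F libraries, so their direction is a description and carries no test.

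The groups were tumour cells labelled PCNA 211F/PyMT (2 libraries) and PCNA WT/PyMT (2 libraries). PCNA is the sliding clamp of DNA replication, and 211F names the variant as the labels do. Both genotypes carry PyMT, the polyoma middle T oncogene, a viral protein that activates growth factor signalling through PI3K. Tumours came from mice 10 weeks old and were dissociated, the epithelial fraction was taken with an anti-EpCAM antibody, and the labels call the cells luminal epithelial adenocarcinoma. The growth protocol describes plating 100000 cells with serum. The promoter behind PyMT, and whether the libraries of a genotype came from separate mice, are not stated in the sources used here. The p-values therefore measure the spread between these libraries, which may be technical.

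FOXO factors bind DNA and switch on genes of cell cycle arrest, stress resistance, autophagy and cell death. When growth factors activate PI3K and the kinase AKT, AKT phosphorylates FOXO proteins, which are then held outside the nucleus by 14-3-3 proteins. Quiescent cells, which have left the cycle but can return to it, need repressors of cycle genes such as the pocket protein p130, the product of Rbl2, and brakes on growth signalling. The activity of FOXO proteins depends on where they are in the cell, which RNA levels do not show.

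The promoters of the 4 genes picked for lower values are given because FOXO proteins and the p130 complex act at promoters. The RefSeq table (GRCm38.p6) held a promoter of 300 bases, with 250 before and 50 after the start, for 9 of the 10 genes, and Foxo4 was not in it. The lines show the bases before the start, 5′ to 3′ along the gene (250 in Pnrc1 and Rbl2, and the first 240 of them in Ypel3), and a site of 30 bases in Ypel3 and in Ccng2, whose window lies in the first exon of a longer annotated transcript. Capitals mark a match to a searched motif.
Ypel3 (chr7:126776713-126776952, plus strand): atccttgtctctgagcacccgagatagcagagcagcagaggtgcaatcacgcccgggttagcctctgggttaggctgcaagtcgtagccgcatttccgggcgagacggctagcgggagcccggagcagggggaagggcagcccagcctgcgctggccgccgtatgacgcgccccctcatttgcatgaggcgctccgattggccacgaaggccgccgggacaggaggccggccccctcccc
Ypel3 site after the start (chr7:126776978-126777007, plus strand): tggtctcggtGTAAACAagtcgaggcggct
Pnrc1 (chr4:33248788-33249037, minus strand): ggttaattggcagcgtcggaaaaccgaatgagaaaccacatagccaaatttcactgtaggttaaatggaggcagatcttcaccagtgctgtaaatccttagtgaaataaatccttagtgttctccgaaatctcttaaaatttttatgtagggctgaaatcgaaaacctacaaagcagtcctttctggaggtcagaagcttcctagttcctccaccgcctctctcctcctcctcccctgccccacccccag
Ccng2 site before the start (chr5:93267545-93267574, plus strand): gcgtcgcagactCAAAACAAaaacaagggg
Rbl2 (chr8:91069807-91070056, plus strand): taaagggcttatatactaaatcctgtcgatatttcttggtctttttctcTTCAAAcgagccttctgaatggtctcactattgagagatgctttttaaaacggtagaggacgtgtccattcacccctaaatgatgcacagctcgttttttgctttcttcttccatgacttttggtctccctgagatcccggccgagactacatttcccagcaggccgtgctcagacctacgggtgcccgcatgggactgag

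The motifs searched on both strands were the FOXO core in the forms GTAAACA and GTAAATA, the insulin response core CAAAACAA, which FOXO proteins also bind, and TTTGAA, the cell cycle homology element read by the p130 complex. Ypel3 held GTAAACA at bases 26 to 32 after the start, a form found in 3.65% of 32851 promoters. Ccng2 held CAAAACAA from -16 to -9, counted from the start, which was present in 2.51% of promoters. Rbl2 held TTTGAA, read on the opposite strand, from -201 to -196, a motif of 17.9% of promoters. GTAAATA was in none of the 9 and in 3.04% of all promoters. No match overlapped another, and the windows of Foxo1, Foxo3, Sesn3, Pik3ip1, Tob1 and Pnrc1 held no match. A match is a description of the sequence and does not show that a factor binds there.

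The libraries are described by FPKM, which counts fragments relative to transcript length and to the total mapped in the library, so levels can be set side by side between genes. FPKM summed to between 544399 (WT 1) and 564977 (211F 1) per library. Low values fell on whole steps for 88.9% to 92.2% of the values, within 0.1 of a fragment, which puts the depth of WT 2 at 1.72 times that of WT 1, if values were not rescaled. Fragments were estimated on that scale with all annotated exons of a gene counted in its length. The 10 genes then rest on roughly 477 fragments (Ypel3 in 211F 1) to 19715 (Sesn3 in WT 2). A shorter transcript would give fewer, but the 10 genes are not close to the limit of detection. All 10 passed the filter of a mean of at least 1 FPKM, as did 12767 genes in all.

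The libraries did not all carry the epithelial marker levels that the labels name. The summed level of 8 epithelial markers was 3211 FPKM in 211F 1 and 3398 in 211F 2, against 2933 FPKM in WT 1 and 6.85 in WT 2. The summed level of 8 mesenchymal or fibroblast markers was 3784 FPKM in 211F 1 and 35.02 in 211F 2, against 264.9 FPKM in WT 1 and 3380 in WT 2. That of 4 smooth muscle or myoepithelial markers was 614.6 and 0.626 FPKM in 211F 1 and 211F 2, against 0.763 and 108.4 in WT 1 and WT 2. WT 2 thus held nearly no epithelial transcripts, and 211F 1 held some markers of both kinds. In 211F 1 Vim (1856 FPKM) and Fn1 (1851) made up most of the mesenchymal sum. Zeb1 was at 41.6 FPKM there, against 52.3 in WT 2. Col1a1, Col1a2 and Col3a1 were at 2.70, 0.286 and 3.63 FPKM, against 437, 416 and 118 in WT 2. Krt14 (1297 FPKM) and Krt5 (1029) led the epithelial sum of 211F 1. Krt8 was at 505 FPKM there, against 582 in 211F 2, but Epcam was at 77.3, against 450. FPKM values do not show the PCNA allele, so the genotype of each library is taken from its label, and every 211F minus WT value rests on those labels. Leukocyte markers summed to at most 1.44 FPKM in any library, endothelial markers to at most 1.92 and adipocyte markers to at most 2.28, with Adipoq listed at 0 in all 4. In bulk RNA, fewer cells of a type and less RNA per cell cannot be told apart.

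**Figure D1:**
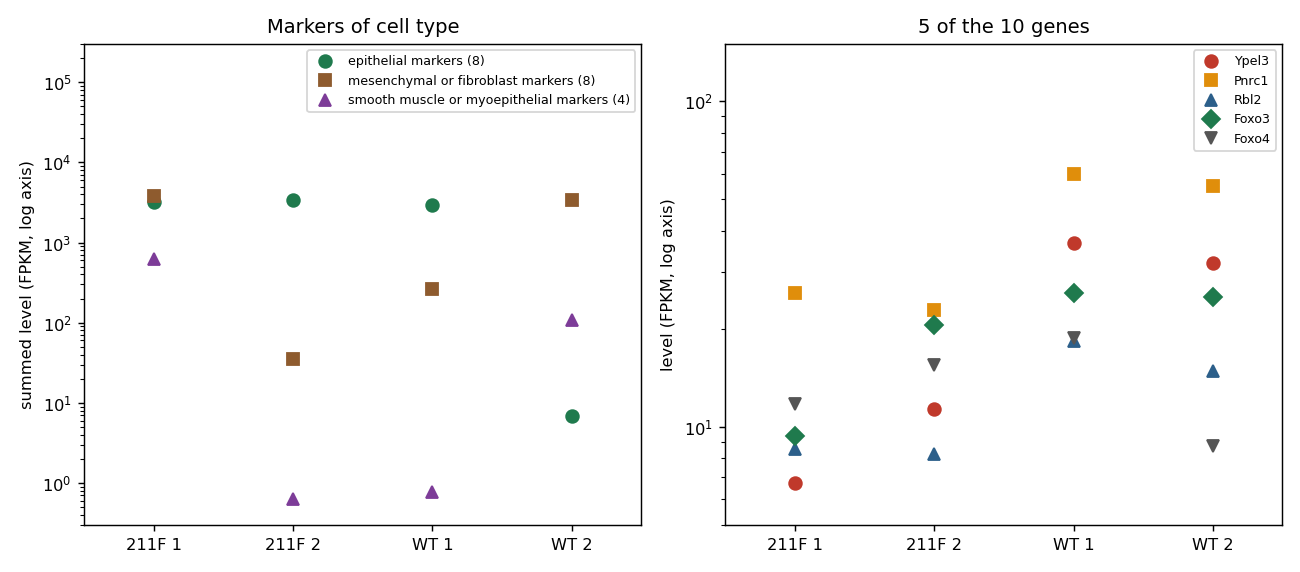
Left, the summed level of 3 marker lists in each library (FPKM, log axis); right, the level of Ypel3, Pnrc1, Rbl2, Foxo3 and Foxo4 in each library (FPKM, log axis). The mesenchymal and smooth muscle sums are high in 211F 1 and WT 2 and the epithelial sum is low in WT 2 only. Ypel3, Pnrc1 and Rbl2, which were picked for this, are lower in 211F 1 and 211F 2 than in WT 1 and WT 2. Foxo3 is far lower only in 211F 1, and for Foxo4 both 211F libraries lie between the WT libraries.

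In the comparison of 211F with WT, 9 of the 10 genes had a negative difference and in 9 of the 10 both 211F libraries lay below both WT libraries. Over all genes tested, 46.9% had a negative difference, and in 11.6% both 211F libraries lay below both WT libraries. For the 4 picked on this contrast that direction is given by the picking. Of the other 6, all but Foxo4 lay below in the same way, 5 of 6. The median difference of the 10 genes was -0.86 log2 units, and that of the 6 was -0.56, against 0.03 over all genes tested.

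None of the differences passed the test. The limma test called 0 of 12767 genes at an adjusted p of 0.05 (0% of genes tested), and 241 genes (1.89%) had an unadjusted p under 0.05. None of the 6 genes that were not picked on the contrast was among those 241. An exact permutation test of 2 against 2 libraries cannot go below a two-sided p of 0.333. Differences are 211F minus WT in log2(FPKM + 1), a scale that understates the change of low genes.

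**Figure D2:**
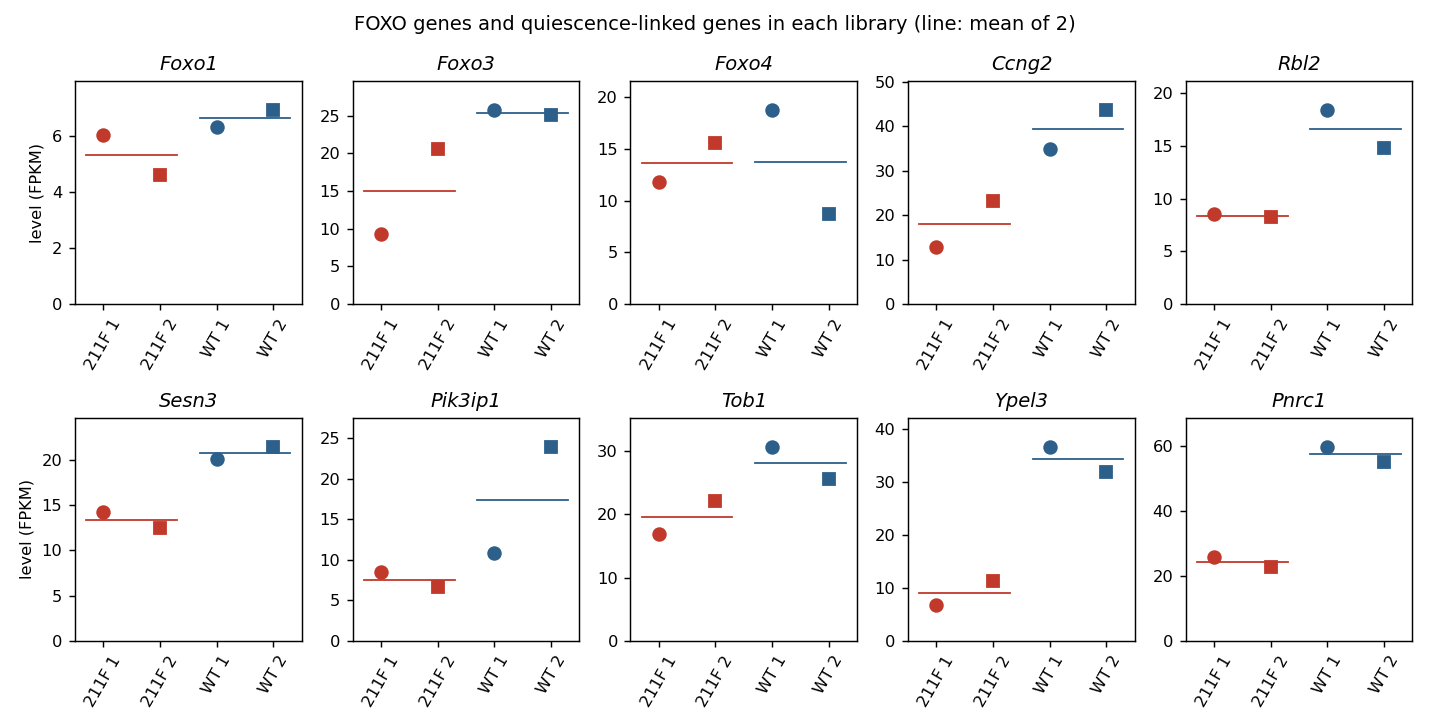
Level of each of the 10 genes in each library (FPKM, linear axes from 0; red 211F, blue WT; circles replicate 1, squares replicate 2), with a line at the mean of the 2 libraries of a genotype. In every panel but that of Foxo4 both red points lie below both blue points. The separation is wide for Ypel3 and Pnrc1, which were picked for lower 211F values, and narrow for Foxo1.

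Among the FOXO factors, Foxo3 had the largest difference and that of Foxo4 was near 0. Foxo1 (ENSMUSG00000044167; GRCm38 chromosome 3, 52268336 to 52353221, plus strand), the factor best known for glucose metabolism and vessel growth, had 6.02 FPKM in 211F 1 and 4.59 in 211F 2, against 6.33 FPKM in WT 1 and 6.92 in WT 2. The groups did not overlap, but 211F 1 and WT 1 were almost level. The difference was -0.28 ± 0.34 (SE; limma adjusted p = 0.9999), and the 2 libraries of 211F differed from each other by 0.33, more than the 0.06 that separated the genotypes. The difference was -0.12 without 211F 2 and -0.45 without 211F 1. An antisense transcript, Gm20402, overlaps 674 bases of the exons of Foxo1 on the other strand. It stood at 8.97 and 8.61 FPKM in 211F 1 and 211F 2, against 8.05 and 10.01 in WT 1 and WT 2. Libraries were strand-specific, per the labels' protocols, but the strand setting used to compute FPKM is not stated in the sources used here.

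Foxo3 (ENSMUSG00000048756; chromosome 10, 42181841 to 42276755, minus strand), a factor tied to stress resistance, stem cell quiescence and cell death, had 9.35 FPKM in 211F 1 and 20.6 in 211F 2, against 25.7 FPKM in WT 1 and 25.1 in WT 2. Only 211F 1 stood far from the rest. The difference was -0.82 ± 0.44 (SE; limma adjusted p = 0.9999), and it was -0.29 without 211F 1 and -1.35 without 211F 2, so its size rested on which 211F library was used. The level in WT was nearly equal in both libraries (25.4 ± 0.461 FPKM, SD, n = 2). WT 2 held nearly no epithelial transcripts, and 211F 1 held some markers of both kinds. The part of cell type in Foxo3 was not tested.

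Foxo4 (ENSMUSG00000042903; chromosome X, 101254528 to 101260873, plus strand), the X-linked member of the family, had 11.8 FPKM in 211F 1 and 15.5 in 211F 2, against 18.8 FPKM in WT 1 and 8.76 in WT 2. Both 211F libraries lay between the 2 WT libraries. The means were 13.7 ± 2.67 FPKM in 211F and 13.8 ± 7.07 FPKM in WT (SD, n = 2 each), with a difference of 0.07 ± 0.46 (SE; limma adjusted p = 0.9999). The sign turned without WT 2 (-0.44) and without 211F 2 (-0.12). The 2 highest libraries, WT 1 and 211F 2, were the 2 with the lowest mesenchymal marker sums; the part of cell type in Foxo4 was not tested.

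Both cell cycle genes had lower levels in 211F, and they had been picked for this. Ccng2 (ENSMUSG00000029385; chromosome 5, 93267257 to 93276231, plus strand) encodes cyclin G2, an unusual cyclin that is induced as cells stop dividing and is a known FOXO target. It had 12.9 FPKM in 211F 1 and 23.2 in 211F 2, against 34.9 FPKM in WT 1 and 43.6 in WT 2. Its mean in 211F was 45.9% of that in WT, a difference of -1.13. The 2 libraries of 211F differed by 0.80, more than the 0.57 between the nearest libraries of the 2 genotypes, and the difference was -0.73 without 211F 1.

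Rbl2 (ENSMUSG00000031666; chromosome 8, 91070057 to 91123844, plus strand), which encodes the pocket protein p130 of the DREAM repressor complex, had 8.52 FPKM in 211F 1 and 8.27 in 211F 2, against 18.4 FPKM in WT 1 and 14.8 in WT 2. The 211F libraries were almost equal, and their mean was 50.5% of that in WT, a difference of -0.90. The gap of 0.73 between the nearest libraries of the genotypes was larger than the 0.04 within 211F and the 0.29 within WT. Exons of Rbl2 share 693 bases with Aktip and 892 with Gm45464, both on the other strand, and Gm45464 was at or below 0.399 FPKM. Aktip had 29.3 and 51.5 FPKM in 211F 1 and 211F 2, against 47.9 and 24.3 in WT 1 and WT 2, an order unlike that of Rbl2, and its part in the Rbl2 values was not tested.

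The 2 brakes on growth signalling were not picked on the contrast. Sesn3 (ENSMUSG00000032009; chromosome 9, 14275067 to 14333101, plus strand) encodes sestrin 3, a FOXO target that restrains mTORC1, the kinase complex that couples nutrients to growth. It had 14.2 FPKM in 211F 1 and 12.5 in 211F 2, against 20.0 FPKM in WT 1 and 21.4 in WT 2. The levels were 13.4 ± 1.23 FPKM in 211F and 20.7 ± 0.988 FPKM in WT (SD, n = 2 each), and the difference was -0.60 ± 0.26 (SE; limma adjusted p = 0.9999). The gap of 0.47 between the genotypes was larger than the 0.18 within 211F and the 0.09 within WT, which was so for no other of the 6. Leaving out each library in turn gave -0.69 to -0.51.

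Pik3ip1 (ENSMUSG00000034614; chromosome 11, 3330401 to 3342971, plus strand) encodes a membrane protein that binds PI3K and inhibits it. It had 8.43 FPKM in 211F 1 and 6.65 in 211F 2, against 10.8 FPKM in WT 1 and 23.9 in WT 2. The 3 libraries other than WT 2 lay close together, and the difference of -1.01 ± 0.48 (SE; limma adjusted p = 0.9999) was -0.47 without WT 2 and -1.55 without WT 1. WT 2 is also the library without epithelial transcripts, and the part of this in Pik3ip1 was not tested. Exons of Pik3ip1 share 91 bases with Gm12592 on the other strand, which stayed at or below 1.39 FPKM.

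The 3 remaining genes act against proliferation. Tob1 (ENSMUSG00000037573; chromosome 11, 94211454 to 94215495, plus strand) encodes a protein that recruits the CCR4-NOT deadenylase to messenger RNAs and is known for keeping T cells quiescent. It had 16.9 FPKM in 211F 1 and 22.1 in 211F 2, against 30.7 FPKM in WT 1 and 25.6 in WT 2, a difference of -0.51 ± 0.28 (SE; limma adjusted p = 0.9999). The groups did not overlap, but the 0.37 within 211F and the 0.26 within WT were both above the gap of 0.20 between them, and the difference was -0.33 without 211F 1.

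Ypel3 (ENSMUSG00000042675; chromosome 7, 126776955 to 126780514, plus strand) encodes a small zinc-binding protein whose human counterpart causes growth arrest and senescence when expressed. It had 6.74 FPKM in 211F 1 and 11.3 in 211F 2, against 36.6 FPKM in WT 1 and 31.9 in WT 2. No library of one genotype came near those of the other: the mean in 211F was 26.3% of that in WT and the difference -1.85. The gap of 1.42 was larger than the 0.67 within 211F and the 0.19 within WT.

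Pnrc1 (ENSMUSG00000040128; chromosome 4, 33245423 to 33290163, minus strand), a nuclear receptor coactivator whose product can repress ribosomal RNA production in human cells, had the highest mean level of the 10 genes, although Ccng2 was slightly above it in 211F 2. It had 25.8 FPKM in 211F 1 and 22.8 in 211F 2, against 59.7 FPKM in WT 1 and 55.1 in WT 2. Its mean in 211F was 42.3% of that in WT and the difference -1.21, with a gap of 1.07 against 0.17 within 211F and 0.11 within WT. Each pair of libraries gave nearly the same difference, from -1.07 for 211F 1 minus WT 2 to -1.35 for 211F 2 minus WT 1. The gap between genotypes was above the spread within both in Ypel3, Pnrc1 and Rbl2, which were picked on this contrast, and in 1 of the 6 that were not, Sesn3. That was so in the lower direction for 2.56% of all genes tested, and nothing is read from the 3 picked genes.

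**Figure D3:**
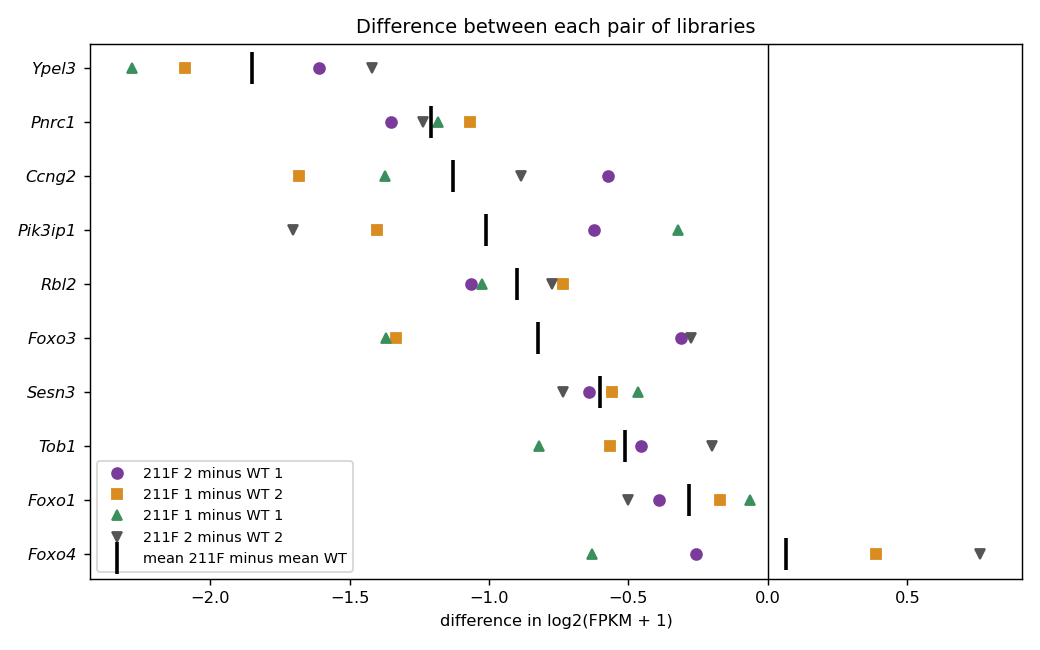
Difference in log2(FPKM + 1) for each of the 4 pairs of a 211F with a WT library (symbols) and for the means (black bar), one row for each gene. All 4 pairs lie below 0 in the 9 genes where both 211F libraries lie below both WT libraries. Of these genes 4 were picked for this. The pairs of Pnrc1 and Sesn3 lie close together, those of Foxo3 and Pik3ip1 are wide, and those of Foxo4 straddle 0.

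Most of the 10 were lower in 211F in the pairs of a 211F and a WT library with the highest correlations across genes. For 9 of them this was fixed, since both 211F libraries lay below both WT libraries. 211F 2 and WT 1 had the highest correlation of the 6 pairs of libraries (Pearson r = 0.920 across the genes tested, which are not replicates), against 0.748 between WT 1 and WT 2, and similar epithelial marker sums. Between them, all 10 genes were lower in 211F 2, where 44.3% of all genes tested were lower. Between 211F 1 and WT 2, the 2 libraries with high mesenchymal marker sums, 9 of the 10 were lower in 211F 1, where 50.6% of all genes were lower. Their correlation was the next highest (r = 0.852). It was close to that of 211F 1 with WT 1 (0.846) and with 211F 2 (0.838), so it does not single out WT 2. Ypel3 was lower by similar amounts in both pairs (-1.61 for 211F 2 minus WT 1 and -2.09 for 211F 1 minus WT 2), as was Rbl2 (-1.06 and -0.73). For Foxo3 the pairs differed, at -0.31 and -1.33. These pairs were formed after the marker levels were seen and carry no test. Ypel3, Pnrc1, Ccng2 and Rbl2 were picked for lower values in both 211F libraries, so their direction in these pairs is given by the picking. For Foxo1, Foxo3, Sesn3, Pik3ip1 and Tob1 it follows from the lack of overlap given above. The counts in pairs therefore add nothing for these genes, and only Foxo4 could vary between pairs. Among the 6 not picked, only Foxo4 was higher in 211F, in the pair of 211F 1 and WT 2. The remaining pairs gave the same counts. All 10 were lower for 211F 1 against WT 1 (48.1% of all genes), and 9 for 211F 2 against WT 2 (48%).

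The levels of the 10 genes spanned a modest range. In order of their mean level they ran from Foxo1, at percentile 28.9 of the genes tested, to Pnrc1, at percentile 77.6. Within WT the largest differences between the 2 libraries were in Pik3ip1 (1.08) and Foxo4 (1.02), and within 211F in Foxo3 (1.06) and Ccng2 (0.80). By the distance between centred profiles over the 4 libraries, the most alike were Foxo1 and Sesn3 (0.337 log2 units) and Rbl2 and Pnrc1 (0.346), and the least alike were Foxo4 and Ypel3 (2.01).

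The genes whose profiles lay nearest to the 4 picked ones were found over all tested genes averaging 5 FPKM or more, by that same distance over the 4 libraries. With 4 points the distance is a description only. Nearest to Ypel3 were Macrod1 (distance 0.0375), Capn5 (0.331) and Pdk1 (0.506). Nearest to Pnrc1 were Sesn1 (0.137), Map1lc3a (0.201) and Ldhb (0.223). Nearest to Ccng2 were Pcmtd2 (0.254), Tnip1 (0.263) and Arhgef28 (0.274), and nearest to Rbl2 were Ctdsp2 (0.143), Vrk3 (0.163) and Bcl9 (0.169).

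In their transcripts the genes were mixed. The 3′ untranslated region of the annotated coding transcript was 6240 bases in Foxo1, 4490 in Foxo3 and 7395 in Sesn3, at percentile 95.3 or above among the genes with such a region. It was 398 bases in Ypel3 and 641 in Pnrc1, below the median of 990. The pentamer ATTTA, a core of AU-rich decay elements, was present in 9 of the 10 such regions and absent from that of Ypel3. Over all tested genes with such a region, 66.9% held it. The regions of the 10 were longer, with a median of 1298 bases against 990. Their median density of ATTTA was 1.66 per kb, against 1.45 over all tested genes but those with the shortest regions. The 9 promoters had a median GC content of 62%, from 48% in Pnrc1 to 75.3% in Tob1. It was 52.7% over all promoters searched, which include those of genes not tested here.

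Known FOXO target genes other than the 10 were mostly lower in 211F. Of 31 listed, 24 were measured; 19 had a negative and 5 a positive difference, with a median of -0.43, and 0 passed the limma test. In 8 of the 24 both 211F libraries lay below both WT libraries and in 3 above, where 11.6% and 15.2% of all genes tested did. The list was written with the values of some members known, so its direction is not independent evidence. Its median was -0.52 to -0.41 when each library was left out in turn, but -0.27 with a pseudocount of 5 and -0.26 with no filter on low values.

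**Figure D4:**
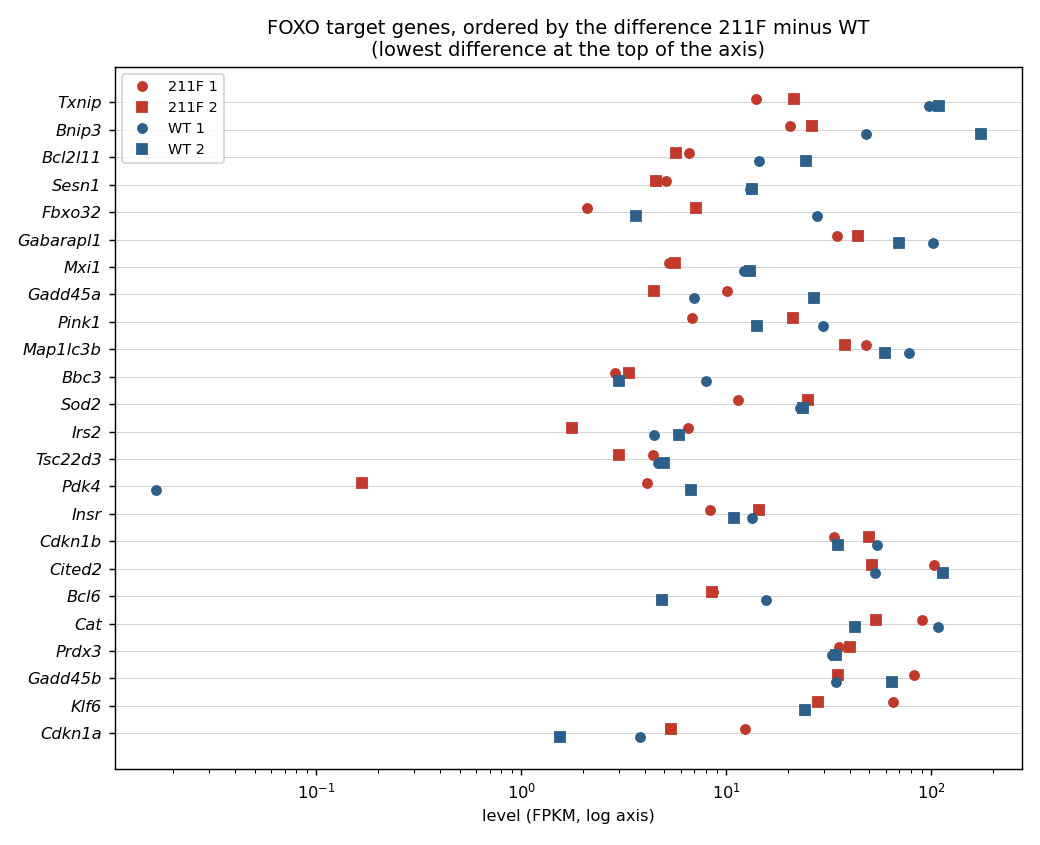
Level of the 24 measured FOXO target genes in each library (FPKM, log axis; red 211F, blue WT; circles replicate 1, squares replicate 2), ordered by the difference 211F minus WT. The red points lie left of the blue points for Txnip, Bnip3, Bcl2l11, Sesn1, Gabarapl1 and Mxi1 near the top, and right of them for Klf6 and Cdkn1a at the bottom.

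Members of this list with the largest differences among non-overlapping genes had several roles. Txnip, an arrestin that limits glucose uptake, had 14.0 and 21.4 FPKM in 211F 1 and 211F 2, against 98.1 and 109 in WT 1 and WT 2 (-2.51 ± 0.30, SE; limma adjusted p = 0.9999). Bcl2l11, which encodes the death-promoting protein BIM, had 6.57 and 5.69 FPKM in 211F 1 and 211F 2, against 14.5 and 24.4 in WT 1 and WT 2. Bnip3, a mitophagy receptor that hypoxia also induces, had 20.4 and 26.2 FPKM in 211F 1 and 211F 2, against 48.3 and 175.6 in WT 1 and WT 2. Cdkn1a, the CDK inhibitor p21 and a p53 target as well, ran the other way, with 12.4 and 5.41 FPKM in 211F 1 and 211F 2, against 3.80 and 1.55 in WT 1 and WT 2. Targets at high level without separation included Cat, catalase, at 90.5 and 53.7 FPKM in 211F 1 and 211F 2, against 108.5 and 42.8 in WT 1 and WT 2. Of targets known from liver and muscle, Pck1, Igfbp1 and Trim63 were at or near 0 in all 4 libraries, but Fbxo32, a muscle ubiquitin ligase gene, had 2.09 and 7.16 FPKM in 211F 1 and 211F 2, against 27.9 and 3.62 in WT 1 and WT 2.

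Relatives of the 10 genes by family were also mostly lower, and 8 of 9 had a negative difference (median -0.36, or -0.74 without WT 2 and -0.55 without WT 1; 0 passed the limma test). Over all genes tested, 46.9% had a negative difference. In 3 of the 9 both 211F libraries lay below both WT libraries, where 11.6% of all genes tested did. Sesn1, the p53- and FOXO-regulated sestrin, had 5.10 and 4.56 FPKM in 211F 1 and 211F 2, against 13.1 and 13.4 in WT 1 and WT 2. Sesn1 is also among the FOXO targets listed above, so both lists count it. Ypel4 had 0.562 and 0.687 FPKM in 211F 1 and 211F 2, against 1.71 and 6.36 in WT 1 and WT 2. Ypel2 had 0.798 and 0.130 FPKM in 211F 1 and 211F 2, against 3.09 and 1.68 in WT 1 and WT 2, low levels throughout. Ccng1, the p53-induced relative of Ccng2, had 28.3 and 23.5 FPKM in 211F 1 and 211F 2, against 17.7 and 24.5 in WT 1 and WT 2, and these overlapped. Pnrc2, a decapping cofactor, had 42.5 and 63.7 FPKM in 211F 1 and 211F 2, against 55.2 and 55.1 in WT 1 and WT 2, which also overlapped.

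Genes of the input to FOXO were split. Of 22 genes of PI3K and AKT signalling 12 had a positive and 10 a negative difference (median 0.04, but 0.20 without 211F 1 and -0.12 without 211F 2; 0 passed the limma test). In 3 both 211F libraries lay below both WT libraries and in 4 above, where 11.6% and 15.2% of all genes tested did. Akt1, a kinase that phosphorylates FOXO proteins, had 179 and 195.1 FPKM in 211F 1 and 211F 2, against 139 and 114 in WT 1 and WT 2 (0.57 ± 0.23, SE; limma adjusted p = 0.9999). Pik3cb had 31.8 and 21.5 FPKM in 211F 1 and 211F 2, against 19.5 and 8.77 in WT 1 and WT 2. Phlpp1 had 10.7 and 9.77 FPKM in 211F 1 and 211F 2, against 7.99 and 3.79 in WT 1 and WT 2. Pik3r1, the regulatory subunit p85 alpha, had 11.8 and 13.4 FPKM in 211F 1 and 211F 2, against 99.1 and 18.01 in WT 1 and WT 2, so WT 1 stood alone. Sgk1, a kinase that also phosphorylates FOXO proteins, had 380.6 and 251.1 FPKM in 211F 1 and 211F 2, against 233.8 and 416.5 in WT 1 and WT 2, without separation.

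Among 19 genes that bind, modify or move FOXO proteins 16 had a positive difference (median 0.21; 0 passed the limma test), and in 6 both 211F libraries lay above both WT libraries, where 15.2% of all genes tested did. Positive differences were also the more frequent over all genes, and the median of these 19 was 0.11 without 211F 1. The 6 included the 14-3-3 genes Ywhag, with 241.3 and 240.4 FPKM in 211F 1 and 211F 2 against 155.1 and 175.4 in WT 1 and WT 2, and Ywhaq, with 190.4 and 233.8 in 211F 1 and 211F 2 against 160.7 and 136.3 in WT 1 and WT 2. The epithelial 14-3-3 gene Sfn had 221.4 and 227.3 FPKM in 211F 1 and 211F 2, against 127.7 and 0.528 in WT 1 and WT 2, where the low library is the one without epithelial markers. Ywhae and Ywhaz, the 2 of highest level, overlapped between genotypes.

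Partners of p130 were split. Of 13 DREAM and pocket protein genes 6 had a positive and 7 a negative difference (median -0.06; 0 passed the limma test). Dyrk1b, a kinase of quiescent cells whose relative DYRK1A starts DREAM assembly, had 2.23 and 0.945 FPKM in 211F 1 and 211F 2, against 7.04 and 7.62 in WT 1 and WT 2. Dyrk1a itself had 34.3 and 33.8 FPKM in 211F 1 and 211F 2, against 29.0 and 24.0 in WT 1 and WT 2, the other direction. E2f4 and Tfdp1, the E2F factor and its dimer partner with the highest levels in the list, overlapped between genotypes.

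The other lists lay near 0. Genes of the BTG family and CCR4-NOT, the machinery Tob1 recruits, were split 7 to 7 (median 0.00390), with Btg1, an antiproliferative relative of Tob1, at 23.0 and 24.8 FPKM in 211F 1 and 211F 2 against 40.3 and 30.4 in WT 1 and WT 2. Genes of the nutrient branch of mTORC1, on which sestrins act, had 8 positive and 7 negative differences (median 0.01). The arginine sensor gene Castor1 had 3.56 and 3.86 FPKM in 211F 1 and 211F 2, against 8.55 and 5.23 in WT 1 and WT 2. CDK inhibitors were split 3 to 3 (median 0.17, but 0.87 without WT 2 and -0.37 without WT 1). Cdkn1b, the p27 inhibitor and a classic FOXO target, overlapped between genotypes, with 33.7 and 49.6 FPKM in 211F 1 and 211F 2 against 54.5 and 35.3 in WT 1 and WT 2.

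Proliferation genes were split. Of 19 genes 9 had a positive and 10 a negative difference (median -0.03; 0 passed the limma test). Cdk1, the mitotic kinase, had 432.7 and 367.7 FPKM in 211F 1 and 211F 2, against 373.8 and 717.7 in WT 1 and WT 2. Top2a, the topoisomerase of dividing cells, had 202 and 158 FPKM in 211F 1 and 211F 2, against 264.3 and 274.8 in WT 1 and WT 2. Both stood above every one of the 10 genes in all 4 libraries.

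**Figure D5:**
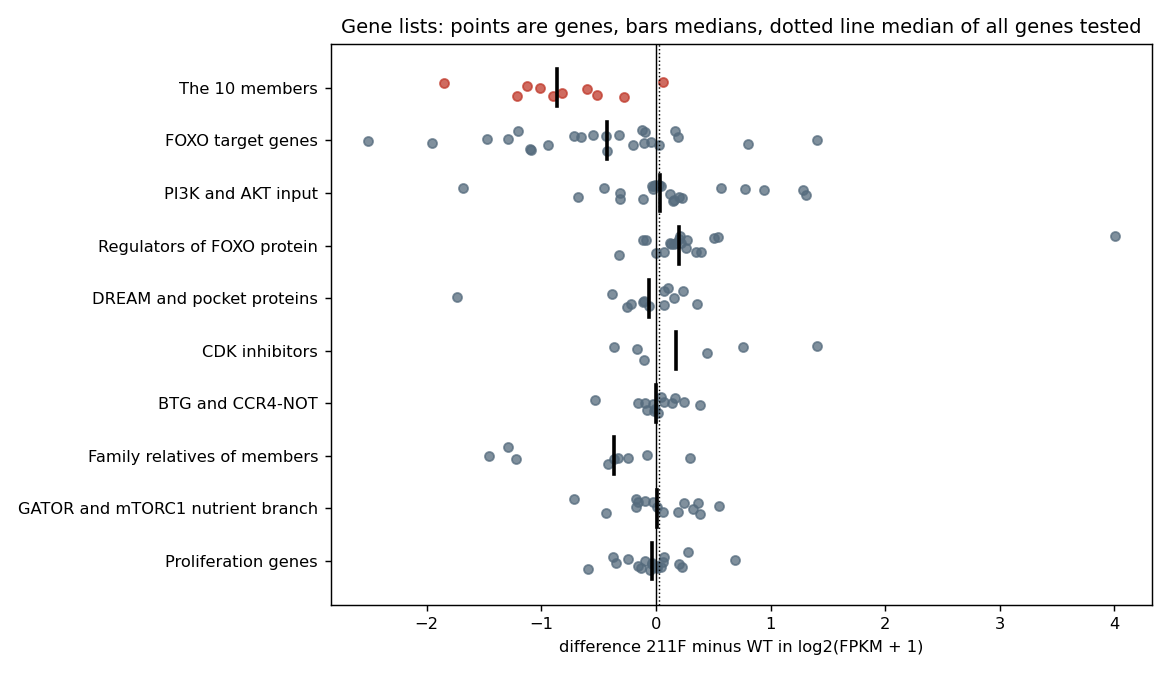
Difference 211F minus WT in log2(FPKM + 1) for the 10 genes (red) and for each gene list (grey points are measured genes, black bars medians, dotted line the median of all genes tested at 0.03). The 10 genes, 4 of them picked for lower 211F values, have a median of -0.86, and the 6 not picked have -0.56. FOXO targets have -0.43 and family relatives -0.36, while the medians of the other lists lie between -0.06 and 0.21.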

How the data were processed

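The authors deposited 1 table of FPKM values for 50679 Ensembl identifiers in 4 libraries (2 211F, 2 WT). TopHat2 2.0.13, DESeq2 and GRCm38 are named, without roles, in the submitters' processing notes; which program computed FPKM, with which annotation and strand setting, is not stated in the sources used here. Libraries were strand-specific, per the labels' protocols. Symbols matched 50369 identifiers; positions are GENCODE M21 on GRCm38.

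Values were analysed as log2(FPKM + 1). The genes averaging 1 FPKM or more were tested with limma 3.58.1 in R 4.3.3 (trend, two-sided, Benjamini-Hochberg over all genes tested, threshold 0.05). The fit was also run on simulated data, whose noise was smaller than the spread between these libraries. That run does not show what differences the test could find here. FPKM is not counts, so no count model was used. The alternatives were 2 other pseudocounts (0.1 and 5) and 2 other filters (none and 5 FPKM) on low values, quantile normalization, median centring, a replicate block and leaving out each library.

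The 10 genes and all lists were chosen with earlier results of these data known. Genes named from a list were up to 4 with the largest difference among non-overlapping genes and the 2 of highest level; some are left out for space. Gabarapl1, Mxi1, Klf6, Fbxo32 and the targets near 0 were named after their values were seen. Sequences are from RefSeq.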

Additional observations from a re-analysis of the deposited data

How the results depend on the processing

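The limma test called 0 genes in all 12 alternatives. The 241 genes at an unadjusted p under 0.05 became 142 with the replicate block, 745 with no filter (where more genes are tested) and, with a library left out, between 221 (without 211F 1) and 836 (without WT 1). The labels do not say that replicate numbers pair libraries, and deviations of libraries that share a number correlated at r = -0.465 over genes; a block of crossed pairs, added after the data were seen, gave 520. Neither block changed any call. Of the 10 genes, 9 or 10 were lower in 211F in every alternative. In 9 of them both 211F libraries lay below both WT libraries, so leaving out a library could not turn the sign. A block, another pseudocount or another filter could not turn it either, so for these settings the count is no check. Foxo4 alone turned, to -0.12 without 211F 2 and -0.44 without WT 2, in a range of -0.44 to 0.57 over the libraries left out. With a library left out, the median of CDK inhibitors ranged from -0.37 (without WT 1) to 0.87 (without WT 2), against 0.17, and that of family relatives from -0.74 (without WT 2) to -0.37, against -0.36; the cause was not tested. Over the other settings these 2 medians ran from -0.10 (no filter) to 0.19 and from -0.47 (pseudocount 0.1) to -0.21 (pseudocount 5). A genotype left with 1 library is taken to vary as the other does.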
